A study of Saccharomyces cerevisiae with 21 samples.

Results

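Covalent complex sequencing (CC-seq) maps, base by base, the DNA ends to which the meiotic nuclease Spo11 stays attached. The data described here are the CC-seq profiles of 5 natural hotspot regions of *Saccharomyces cerevisiae*, named after *CYS3*, *CCT6*, *GAT1*, *ARG4* and *IMD3*. They were taken as fixed windows on 5 chromosomes: chromosome I 128500-132500, chromosome IV 833000-839000, chromosome VI 94000-98000, chromosome VIII 139500-144000 and chromosome XII 1000000-1004500, in coordinates of the R64 build as deposited. The windows were chosen by their known break signal, measured in the same kind of reads, so the presence of a peak in each, its place and its height are given as a description and were not tested. The 5 windows hold the midpoints of 9 of the 3291 hotspots found across the genome in these data. The strongest hotspot of each window was SYN8-DEP1 (CYS3 window), SND1-CCT6 (CCT6 window), FRS2-GAT1 (GAT1 window), ARG4-DED81 (ARG4 window) and ATG23-IMD3 (IMD3 window). Each hotspot is called here by the genes on either side of its peak, and its edges, the same for all libraries, were set on the mean profiles of the *ndt80*Δ genotypes. The other 4 were DEP1-CYS3 and CYS3-SWC3 in the CYS3 window, CCT6-SLY1 in the CCT6 window and DED81-YHR020W in the ARG4 window.

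The 5 genotypes of diploid SK1 yeast sampled at 6 h in sporulation medium were *sae2*Δ *ndt80*Δ *tel1*Δ (the triple mutant, 5 replicates), *sae2*Δ *tel1*Δ (4 replicates), *sae2*Δ *ndt80*Δ (4 replicates), *sae2*Δ (5 replicates) and *sae2*Δ *ndt80*Δ with the catalytically dead allele *spo11-Y135F* (1 library, the control). All 5 carried the *sae2* deletion together with ho::LYS2, lys2, ura3, leu2::hisG, his4X::LEU2 and arg4-nsp, a mutant allele of the *ARG4* gene itself. The 4 Spo11-active genotypes also carried nuc1::LEU2, which the control did not, so the control differs from them in more than Spo11 activity. The study's methods call the replicate libraries biological and independent of each other, while the labels give only a replicate number.

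Meiotic recombination starts when Spo11 cuts both DNA strands, mostly in the nucleosome-depleted promoters of genes, and stays bound to each 5′ end. Sae2 is needed to release it, so that breaks accumulate unrepaired in *sae2*Δ cells. The kinase Tel1 is activated by breaks and limits further breaks nearby, an effect called interference. The transcription factor Ndt80 ends meiotic prophase, and cells without it stay in the stage in which breaks form. Removal of *TEL1*, with *NDT80* present (*sae2*Δ *tel1*Δ over *sae2*Δ) or absent (triple mutant over *sae2*Δ *ndt80*Δ), and removal of *NDT80*, with *TEL1* present (*sae2*Δ *ndt80*Δ over *sae2*Δ) or absent (triple mutant over *sae2*Δ *tel1*Δ), give the 4 comparisons.

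The replicates held 3639390 to 5507974 nuclear reads outside the ribosomal DNA in the triple mutant, 3768002 to 9385310 in *sae2*Δ *tel1*Δ, 4428443 to 5818082 for *sae2*Δ *ndt80*Δ and 3217566 to 8634134 for *sae2*Δ, and the control held 8613208. The Spo11-active *ndt80*Δ libraries had 0 to 1 reads in *NDT80*, against 20 to 124 in the other Spo11-active libraries, and the control, also *ndt80*Δ, had 9. The *tel1*Δ libraries had 0 to 29 reads in *TEL1*, against 66 to 976 in the other Spo11-active libraries. The *ndt80*Δ genotypes were the less uniform ones. Their background, read in 47 long genes, per 1000000 nuclear reads was 2.90 to 45.1 reads per kb in the triple mutant and 6.04 to 51.6 for *sae2*Δ *ndt80*Δ, against 21.6 to 33.3 in *sae2*Δ *tel1*Δ, 10.3 to 21.6 in *sae2*Δ and 73.2 in the control. Both also include libraries that the labels do not set apart but whose deposited tables carry a TC number in their names, 5, 10 or 17, read here as time course (replicates 3 to 5 of the triple mutant, replicates 3 and 4 of *sae2*Δ *ndt80*Δ), so within-series values are given beside the results they touch.

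On the smoothed mean profile of each Spo11-active genotype, the strongest hotspot of each window peaked between genes. SND1-CCT6 (chromosome IV, 834865-837036, 2172 bp) fills the 928 bp gap between the divergent genes *SND1*, which acts in targeting proteins to the endoplasmic reticulum, and *CCT6*, a subunit of the cytosolic chaperonin, and runs into both coding regions. FRS2-GAT1 (chromosome VI, 94925-96593, 1669 bp) covers the 955 bp gap between *FRS2*, a subunit of phenylalanyl-tRNA synthetase, and *GAT1*, a GATA-type activator of nitrogen-regulated genes, and reaches into the *GAT1* coding region. SYN8-DEP1 (chromosome I, 128842-129502, 661 bp) spans the 250 bp between *SYN8*, an endosomal SNARE, and *DEP1*, a component of the Rpd3L histone deacetylase complex.

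ARG4-DED81 (chromosome VIII, 141351-141798, 448 bp) lies in a 491 bp gap between 2 genes of the same direction. These are *ARG4*, argininosuccinate lyase, and *DED81*, asparaginyl-tRNA synthetase, and the hotspot is in the promoter of *ARG4*. ATG23-IMD3 (chromosome XII, 1001880-1002336, 457 bp) sits wholly inside the 853 bp between *ATG23*, an autophagy gene, and *IMD3*, an IMP dehydrogenase. Of the 4 lesser hotspots, DEP1-CYS3 (chromosome I, 130468-130928) and CYS3-SWC3 (132007-132209) lie on either side of *CYS3*, cystathionine gamma-lyase, and CCT6-SLY1 (chromosome IV, 838135-838388) lies between *CCT6* and *SLY1*, which acts in vesicle fusion. DED81-YHR020W (chromosome VIII, 143340-144124) is a divergent promoter of 2 tRNA synthetase genes and extends beyond the window end. Its whole length was counted. In *sae2*Δ the peak of each of the 9 hotspots, on the smoothed profile, lay between genes.

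**Figure D1:**
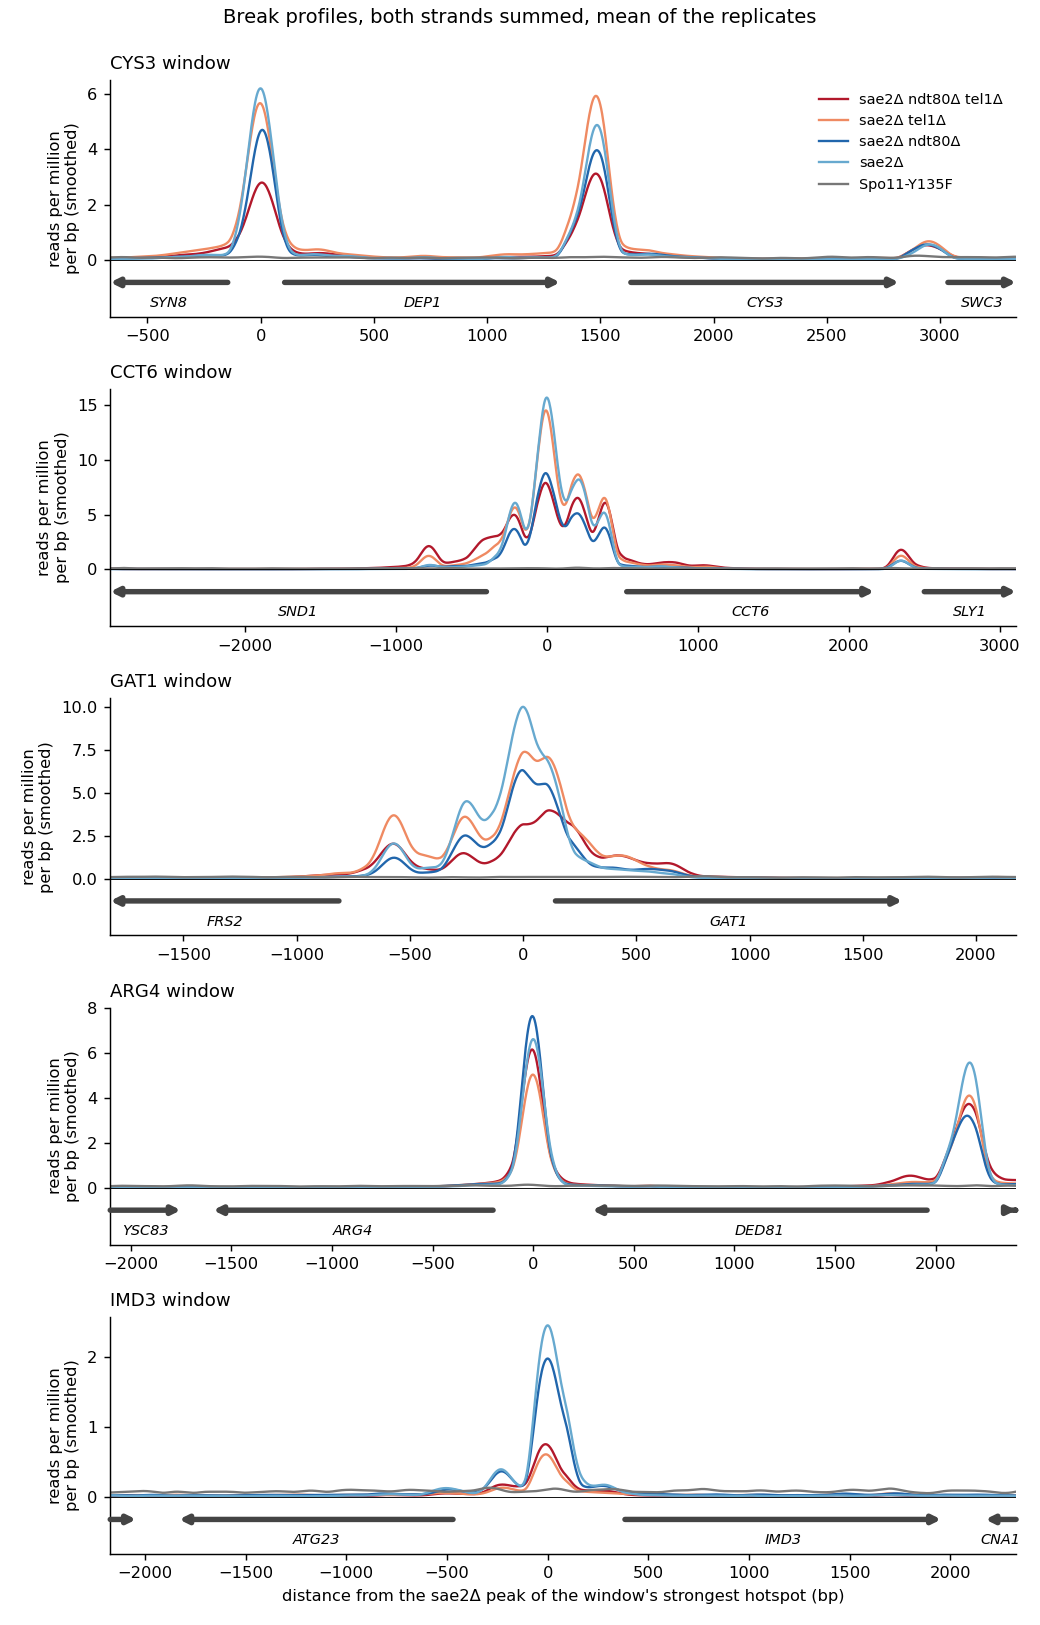
Smoothed CC-seq profiles of the 5 windows. The vertical axis is reads per bp per 1000000 nuclear reads, both strands summed and averaged over replicates, and the horizontal axis is the distance in bp from the *sae2*Δ peak of the strongest hotspot. Lines are the 5 genotypes and arrows below each profile are genes, pointing the way they are transcribed. The IMD3 peak was 0.76 and 0.61 high in the triple mutant and *sae2*Δ *tel1*Δ, against 1.98 in *sae2*Δ *ndt80*Δ, with 2.46 in *sae2*Δ, and the CCT6 and GAT1 profiles were wider in the triple mutant than in *sae2*Δ.

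Strength was measured as the reads of both strands within a hotspot per 1000000 nuclear reads outside the ribosomal DNA (RPM). By mean share of the background-subtracted reads in hotspots over the 4 Spo11-active genotypes, SND1-CCT6 ranked 1 of 3291 (2 within each genotype), FRS2-GAT1 12, ARG4-DED81 136, SYN8-DEP1 155, DED81-YHR020W 169, DEP1-CYS3 189, ATG23-IMD3 581, CCT6-SLY1 1024 and CYS3-SWC3 1504. SND1-CCT6 alone took 0.769% of all hotspot reads in the triple mutant, 1.06% in *sae2*Δ *tel1*Δ, 0.640% in *sae2*Δ *ndt80*Δ, against 0.787% in *sae2*Δ. The strongest hotspots of the windows thus ranked from 1 to 581, and the lesser ones from 169 to 1504, near the middle of the list. Their ranks also differed between genotypes: ATG23-IMD3 was 1036 in the triple mutant and 1141 in *sae2*Δ *tel1*Δ, against 415 in *sae2*Δ *ndt80*Δ, with 381 in *sae2*Δ. CCT6-SLY1 ran the other way, with ranks of 654 and 782, against 1392 and 1506.

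The control showed what remains without Spo11 cutting. It held 190 RPM in SND1-CCT6, 147 in FRS2-GAT1, 63.5 in SYN8-DEP1, 44.2 in ARG4-DED81 and 43.0 in ATG23-IMD3, which was 1.20 to 1.91 times its own background per bp over the 9 hotspots. Since the background of the control was the highest of all, its raw value at a weak hotspot is not a baseline for the other libraries. At ATG23-IMD3, each library's own background accounted for 6.26% of the reads on average in the triple mutant, 11.6% in *sae2*Δ *tel1*Δ, 5.30% in *sae2*Δ *ndt80*Δ, against 1.83% in *sae2*Δ.

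The edgeR quasi-likelihood test over all 3291 hotspots, with Benjamini-Hochberg adjustment and a threshold of 0.05, was used for each strength comparison. Removal of *TEL1* with *NDT80* present changed 1 of the 9 hotspots (ATG23-IMD3, lower), where 32.5% of all hotspots were called, 3.56% higher and 29.0% lower. Removal of *TEL1* without *NDT80* changed 2 of 9 (CCT6-SLY1 higher, ATG23-IMD3 lower), where 23.2% of all were called, 10.4% higher and 12.7% lower. Removal of *NDT80* without *TEL1* changed 3 of 9 (SYN8-DEP1, DEP1-CYS3 and FRS2-GAT1, all lower), where 16.2% of all hotspots were called, 14.0% higher and 2.19% lower. Removal of *NDT80* with *TEL1* present changed none of the 9, and 0.0% of all hotspots were called. In that comparison 368 hotspots had an unadjusted p under 0.05 and DESeq2 called 117. The count depended on the time-course libraries, all of them *ndt80*Δ, and was 711 when they were left out. SYN8-DEP1, DEP1-CYS3 and ATG23-IMD3 were then called lower (−0.76, −0.77 and −0.78, adjusted p = 0.029, 0.029 and 0.022, edgeR). The interaction of both deletions called none of the 9 and 5 of all hotspots (0.152%).

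The median log2 change over all hotspots was −0.39, 0.00, 0.29 and −0.12 in those 4 comparisons in the order given, and that of the 9 hotspots was 0.09, −0.13, −0.21 and −0.29. These medians depend on the scale. Relative to the total reads in hotspots, the medians over all hotspots became −0.11, −0.17, 0.09 and 0.14, and the calls changed too. Removal of *TEL1* with *NDT80* then had 4 calls among the 9 (3 higher, 1 lower), where 43.7% of all were called (16.3% higher, 27.4% lower). Without *NDT80* it had 3 (1 higher, 2 lower), where 42.9% were called (13.6% higher, 29.3% lower). Removal of *NDT80* without *TEL1* had 3, all lower, where 30.6% were called (19.8% higher, 10.8% lower), and with *TEL1* 0, where 0.0304% were called. Without the time-course libraries the comparison with *TEL1* called 464 of all hotspots, and SYN8-DEP1, DEP1-CYS3 and FRS2-GAT1 were among those called lower. The interaction had 0, where 2.67% were called. On *TEL1* removal with *NDT80*, TMM factors and DESeq2 called SYN8-DEP1, DEP1-CYS3, CYS3-SWC3, CCT6-SLY1 and FRS2-GAT1 higher and ATG23-IMD3 lower. In these fits 1660 (TMM) and 1722 (DESeq2) of all hotspots were called in either direction. On *TEL1* removal without *NDT80* TMM and DESeq2 both added DED81-YHR020W (0.45 with TMM, adjusted p = 0.049, and 0.46 with DESeq2, adjusted p = 0.034). There 1620 and 1717 of all hotspots were called.

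**Figure D2:**
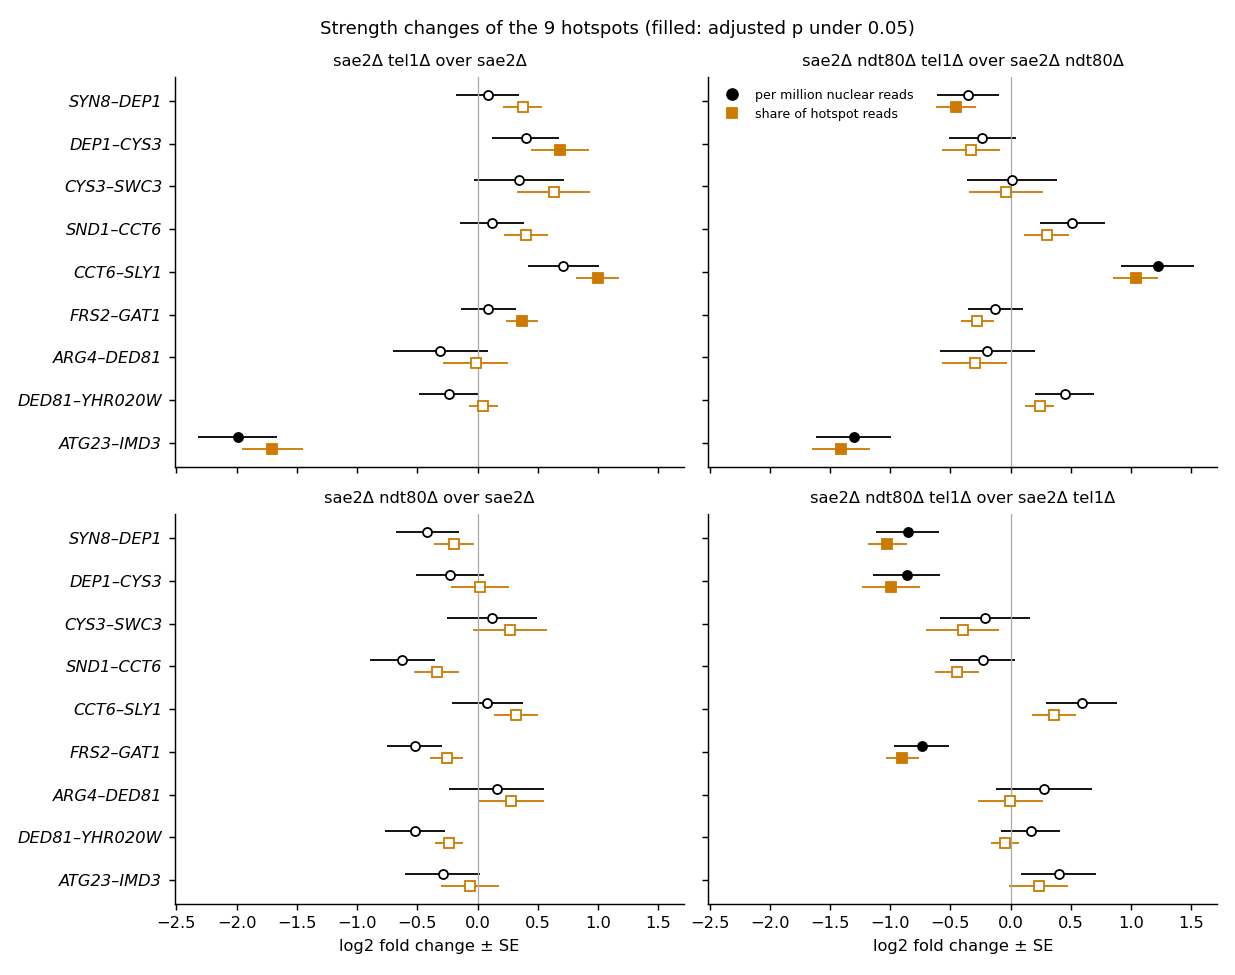
Fitted log2 fold changes of the 9 hotspots, with standard errors as bars, for the 4 comparisons, each panel titled with the mutant over its reference genotype. Circles are on the RPM scale, squares are relative to the total in hotspots, and filled symbols have an adjusted p under 0.05. ATG23-IMD3 was lower in both comparisons that removed *TEL1* on both scales (−1.99 and −1.30 on the RPM scale).

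Among the 9 hotspots, ATG23-IMD3 had the largest fitted change in strength. It was lower whenever *TEL1* was deleted, by 3.98-fold with *NDT80* present and by 2.47-fold without it. It had 100, 98.7, 140, 157 and 265 RPM in the triple mutant, against 190, 347, 304 and 663 RPM in *sae2*Δ *ndt80*Δ. It had 124, 118, 119 and 102 RPM in *sae2*Δ *tel1*Δ, against 534, 572, 363, 406 and 425 RPM in *sae2*Δ. Every *sae2*Δ *tel1*Δ replicate was therefore below every *sae2*Δ replicate, while 1 triple mutant replicate, the time course 17 library at 265, was above the lowest *sae2*Δ *ndt80*Δ replicate.

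The means were 152 ± 68.0 RPM in the triple mutant (SD, n = 5), 116 ± 9.64 in *sae2*Δ *tel1*Δ (n = 4), 376 ± 202 in *sae2*Δ *ndt80*Δ (n = 4) and 460 ± 88.6 in *sae2*Δ (n = 5). The log2 fold change was −1.99 (SE 0.33, adjusted p = 7.3e-05, edgeR) with *NDT80* present and −1.30 (SE 0.31, adjusted p = 0.0037, edgeR) without it. The call without *NDT80* was lost with the 2 genotypes alone (adjusted p = 0.063, edgeR). The interaction was 0.69 (adjusted p = 0.43, edgeR), so the smaller change without *NDT80* was not shown to differ from the larger one. Leaving out *sae2*Δ *ndt80*Δ replicate 4 raised it to 1.11 (adjusted p = 0.035). Within series, the triple mutant was 2.71-fold lower among the first libraries (99.4 RPM, against 269 in *sae2*Δ *ndt80*Δ), 1.93-fold lower in time course 10 (157, against 304) and 2.50-fold lower in time course 17 (265, against 663).

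Removal of *NDT80* left the level of ATG23-IMD3 within its spread. The log2 change was −0.29 with *TEL1* (95% interval −0.90 to 0.32) and 0.40 without it (−0.21 to 1.01), neither called. Without the time-course libraries it was lower with *TEL1* (−0.78, adjusted p = 0.022, edgeR), where 711 of all hotspots were called. After background subtraction, per 1000000 reads in all hotspots (NormHpM), it was 136, 122, 205, 331 and 304 in the triple mutant and 182, 178, 190 and 164 in *sae2*Δ *tel1*Δ, against 518, 464, 661 and 780 in *sae2*Δ *ndt80*Δ and 772, 722, 527, 552 and 578 in *sae2*Δ. On this scale the genotypes with and without *TEL1* did not overlap. Background-subtracted values were not tested. With raw counts relative to the total in hotspots, both *TEL1* changes kept their call (−1.70, adjusted p = 2.5e-05, and −1.41, adjusted p = 0.00014, edgeR). The hotspot took 60.3% of the window's reads in the triple mutant (42.8 to 87.4% by replicate) and 45.8% in *sae2*Δ *tel1*Δ (38.5 to 52.0%). It took 65.9% in *sae2*Δ *ndt80*Δ (41.1 to 91.2%) and, at the top, 77.0% in *sae2*Δ (71.1 to 83.2%). These are raw shares of a 4501 bp window, background included. How much of the rest was background was not tested.

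The shape of ATG23-IMD3 moved as well. Its peak stood at 1002163 in the triple mutant, 1002164 in *sae2*Δ *tel1*Δ, and 1002173 in both *sae2*Δ *ndt80*Δ and *sae2*Δ, 470 bp from the start of *ATG23* and 384 bp from the start of *IMD3* in *sae2*Δ. The finer profile (51 bp smoothing) resolved a main sub-peak at 1002155 and a second near 1002244. The second reached 35.9% of the height of the main one in the triple mutant and 33.5% in *sae2*Δ *tel1*Δ, against 50.9% in *sae2*Δ *ndt80*Δ, with 50.8% in *sae2*Δ.

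The split of reads about the hotspot midpoint was called in the same direction. The left side held 32.7, 25.9, 25.9, 21.1 and 23.6% of the reads in the triple mutant, against 21.8, 16.2, 12.3 and 14.7% in *sae2*Δ *ndt80*Δ. It held 22.0, 19.2, 20.5 and 24.6% in *sae2*Δ *tel1*Δ, against 12.4, 13.5, 13.5, 13.9 and 13.3% in *sae2*Δ, and 50.0% in the control. The left share was higher in all *sae2*Δ *tel1*Δ than in all *sae2*Δ replicates, and overlapped in the other pair through *sae2*Δ *ndt80*Δ replicate 1. The left-over-right ratio rose by 0.84 on the log2 scale with *NDT80* (SE 0.18, adjusted p = 0.014, edgeR) and by 0.86 without it (SE 0.18, adjusted p = 0.012, edgeR), where 3.86% and 3.53% of the 3290 hotspots were called. The first call was lost without *sae2*Δ *tel1*Δ replicate 1 (0.82) or replicate 4 (0.76), and the second without *sae2*Δ *ndt80*Δ replicate 3 (0.72). Background made up more of the reads here in the *tel1*Δ genotypes than in their *TEL1* counterparts, as given above, and the control split evenly. The part of the background in the result was not tested.

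Strand balance is the share of reads on the Watson strand, the top strand of the reference. At ATG23-IMD3 it was 50.8, 51.9, 54.3, 55.7 and 53.9% in the triple mutant, below every replicate of the other Spo11-active genotypes. Those were 59.6, 63.3, 62.1 and 56.3% in *sae2*Δ *tel1*Δ, then 59.3, 57.1, 59.8 and 61.3% in *sae2*Δ *ndt80*Δ, and 61.8, 61.6, 61.9, 61.4 and 60.4% in *sae2*Δ. The Watson-over-Crick ratio fell by 0.35 on the log2 scale on removal of *TEL1* without *NDT80* (SE 0.10, adjusted p = 0.018, edgeR) and by 0.41 on removal of *NDT80* without *TEL1* (SE 0.11, adjusted p = 0.027, edgeR). The first call was lost without the time-course libraries (−0.40, adjusted p = 0.071) and without *sae2*Δ *ndt80*Δ replicate 4 (−0.31, adjusted p = 0.054). The second was lost without triple mutant replicate 1 (−0.38) and without *sae2*Δ *tel1*Δ replicate 1, 2 or 3 (−0.43, −0.35 and −0.38).

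**Figure D3:**
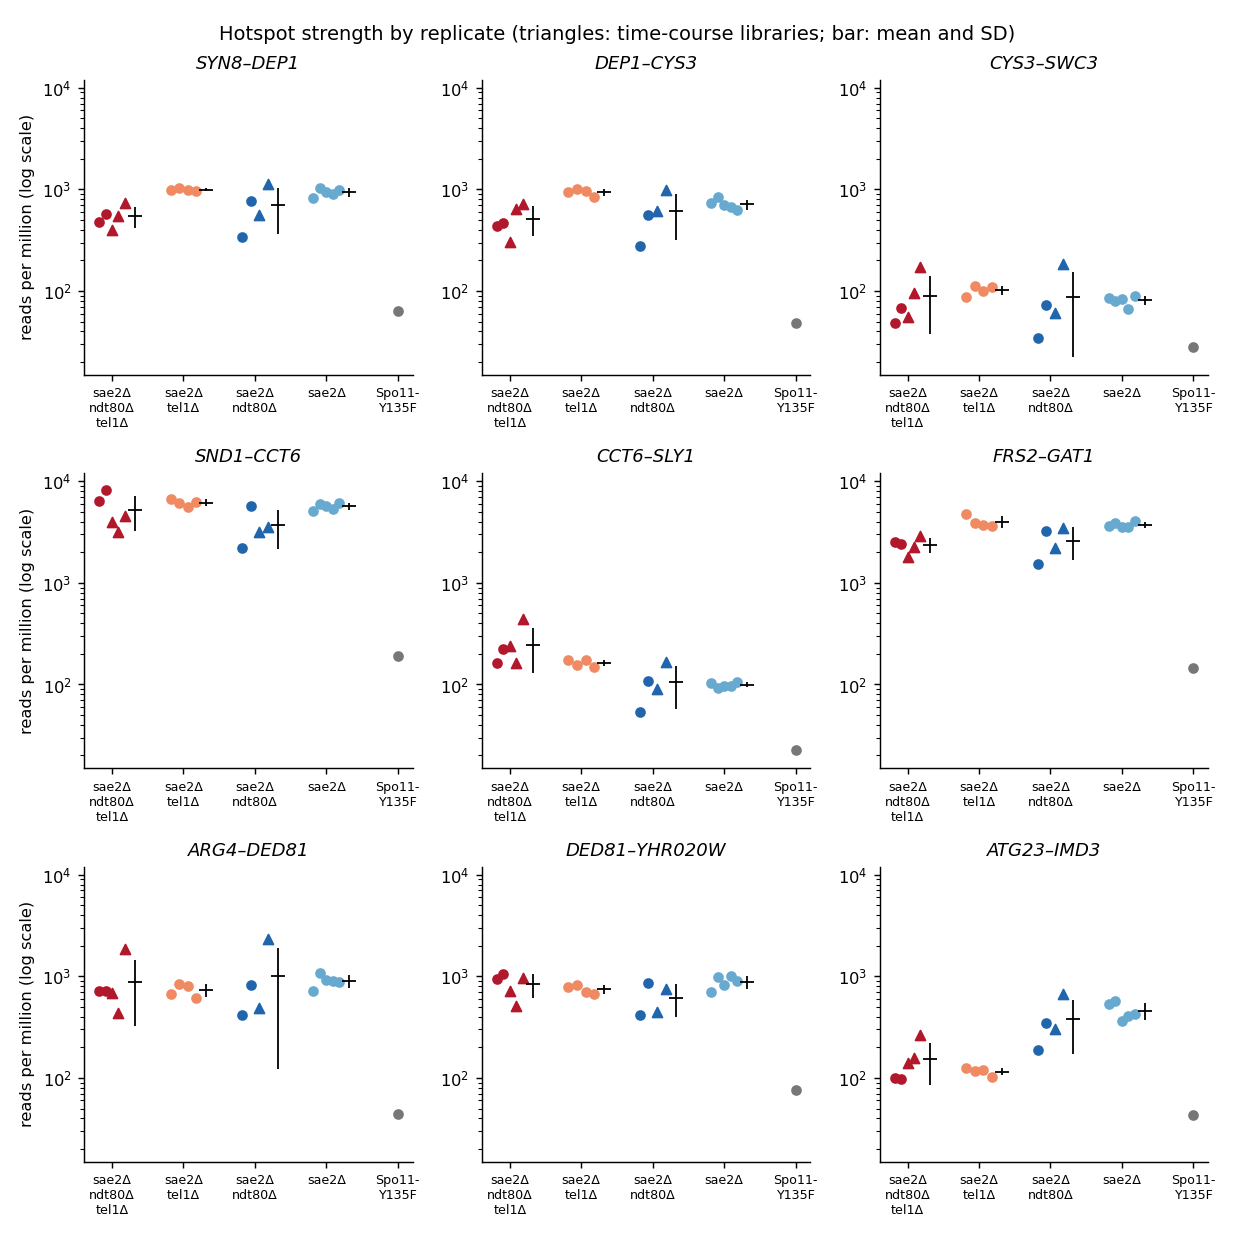
Strength in RPM, on a log axis, in each of the 9 hotspots by replicate and genotype. Triangles are time-course libraries, circles the other libraries, and the bar is the mean with its SD. In the ATG23-IMD3 panel the 9 replicates of the *tel1*Δ genotypes lie between 98.7 and 265 RPM, against 190 to 663 RPM in the 9 replicates with *TEL1*.

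The CCT6 window held the strongest hotspot and, beyond the *CCT6* gene, a minor one that rose on *TEL1* removal. CCT6-SLY1 had 163, 222, 238, 164 and 441 RPM in the triple mutant, against 53.8, 109, 90.6 and 168 RPM in *sae2*Δ *ndt80*Δ, a log2 change of 1.22 (SE 0.30, adjusted p = 0.0057, edgeR). It had 175, 156, 172 and 150 RPM in *sae2*Δ *tel1*Δ, against 103, 92.5, 97.6, 97.3 and 107 RPM in *sae2*Δ, a log2 change of 0.71 (SE 0.30, adjusted p = 0.065, edgeR). The second pair did not overlap. It was called relative to the total in hotspots (1.00, adjusted p = 0.0002, edgeR), and on the RPM scale at the same size without the time-course libraries (adjusted p = 0.00062), with the series as a block (adjusted p = 0.031) and with the 2 genotypes alone (adjusted p = 1.5e-06, edgeR). The fit without the time-course libraries called 1885 of all hotspots and that of the 2 genotypes alone 2314. The call without *NDT80* was lost with the 2 genotypes alone (adjusted p = 0.086, edgeR). Within series the triple mutant was 2.36-fold higher among the first libraries (192 RPM, against 81.5), 1.81-fold in time course 10 and 2.63-fold in time course 17. Background made up as much as 24.4% of the CCT6-SLY1 reads in a *sae2*Δ *ndt80*Δ library.

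SND1-CCT6 itself was not called in any strength comparison with all libraries. It had 6376, 8110, 3927, 3197 and 4541 RPM in the triple mutant and 6745, 6044, 5591 and 6221 RPM in *sae2*Δ *tel1*Δ. It had 2180, 5763, 3176 and 3559 RPM in *sae2*Δ *ndt80*Δ and 5065, 5944, 5737, 5383 and 6178 RPM in *sae2*Δ. The *ndt80*Δ genotypes spread widely and overlapped with the others, while the *NDT80* genotypes were tight. The log2 change on *TEL1* removal was 0.12 with *NDT80* (95% interval −0.40 to 0.64) and 0.51 without it (−0.02 to 1.04). Without *NDT80* the ratio was 1.82 among the first libraries and 1.15 among the time-course libraries. The change without *NDT80* was called when the time-course libraries were left out (0.87, adjusted p = 0.025, edgeR), where 1275 of all hotspots were called. Without *sae2*Δ *ndt80*Δ replicate 2, the highest of its genotype, *TEL1* removal without *NDT80* gave 0.82 (adjusted p = 0.025, edgeR) and *NDT80* removal with *TEL1* gave −0.93 (adjusted p = 0.045, edgeR).

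The position of the main SND1-CCT6 peak hardly differed, at 835883, 835886, 835884 and 835891 in the triple mutant, *sae2*Δ *tel1*Δ, *sae2*Δ *ndt80*Δ and *sae2*Δ, with replicates spanning 223, 5, 46 and 12 bp. Its height was 7.91 RPM per bp in the triple mutant and 14.54 in *sae2*Δ *tel1*Δ, against 8.80 in *sae2*Δ *ndt80*Δ, with 15.71 in *sae2*Δ. The finer profile resolved 11, 8, 7 and 7 sub-peaks. The highest was at 835935 in 3 genotypes, 18.8 high in *sae2*Δ *tel1*Δ, 13.7 in *sae2*Δ *ndt80*Δ, against 22.1 in *sae2*Δ. In the triple mutant it was 11.4 high there and was passed by a sub-peak at 836276, close to *CCT6*, with 15.6. That second one was 16.7, 10.5 and 13.8 high in the other 3.

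Breaks at SND1-CCT6 were spread more widely in the triple mutant, and a larger share of them lay within *SND1*. The width holding the central 80% of reads was 1084, 859, 871, 793 and 824 bp in the triple mutant, 708, 619, 640 and 668 bp in *sae2*Δ *tel1*Δ, 759, 625, 606 and 616 bp in *sae2*Δ *ndt80*Δ, and 600, 602, 566, 602 and 586 bp in *sae2*Δ. All triple mutant replicates were wider than those of the other Spo11-active genotypes. The share of hotspot reads within the *SND1* coding region was 13.4 ± 2.79% in the triple mutant, 5.91 ± 0.94% in *sae2*Δ *tel1*Δ, 4.76 ± 2.54% in *sae2*Δ *ndt80*Δ, against 2.46 ± 0.33% in *sae2*Δ (SD). That within *CCT6* was 5.49 ± 2.57, 3.50 ± 1.04, 3.32 ± 2.70 and 1.75 ± 0.22% in the same order. Here the triple mutant (3.26 to 9.56% by replicate) overlapped with *sae2*Δ *tel1*Δ (2.71 to 4.91%) and *sae2*Δ *ndt80*Δ (1.11 to 6.95%).

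Width was tested with limma on the 2080 hotspots with enough reads on both strands, a test added after the profiles had been seen. It was larger at SND1-CCT6 by 235 bp on removal of *TEL1* without *NDT80* (SE 49.8, adjusted p = 0.012) and by 227 bp on removal of *NDT80* without *TEL1* (SE 49.8, adjusted p = 0.014). The share of the 2080 hotspots called was 6.44% and 4.62%. The first call was lost without *sae2*Δ *ndt80*Δ replicate 3 (220 bp), and the second without *sae2*Δ *tel1*Δ replicate 2 (214 bp) or 3 (221 bp). Without the time-course libraries the first difference was 280 bp with an adjusted p of 0.074 (limma).

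The 2 strands at SND1-CCT6 moved apart. With Spo11 bound to each 5′ end, a break gives a Watson read on its right and a Crick read on its left, so a single cut site yields nearly coincident strands. The Watson median minus the Crick median, the strand offset, was 450, 397, 427, 284 and 318 bp in the triple mutant and 221, 123, 126 and 187 bp in *sae2*Δ *tel1*Δ. It was 185, 136, 43 and 164 bp in *sae2*Δ *ndt80*Δ, 30, 42, 18, 33 and 24 bp in *sae2*Δ and −49 bp in the control. Every triple mutant replicate lay above every other replicate and every *sae2*Δ replicate below all the mutants. The offset was larger by 243 bp on removal of *TEL1* without *NDT80* (SE 37.1, adjusted p = 0.0003, limma) and by 211 bp on removal of *NDT80* without *TEL1* (SE 37.1, adjusted p = 0.0026, limma), in comparisons that called 28.2% and 13.7% of the 2080 hotspots. Removal of *TEL1* with *NDT80* gave 134.9 bp (adjusted p = 0.051, limma; 4.28% of all called), which became 0.0034 without the time-course libraries, and 0.14 at 116 bp without replicate 1 of the 3 mutants.

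**Figure D4:**
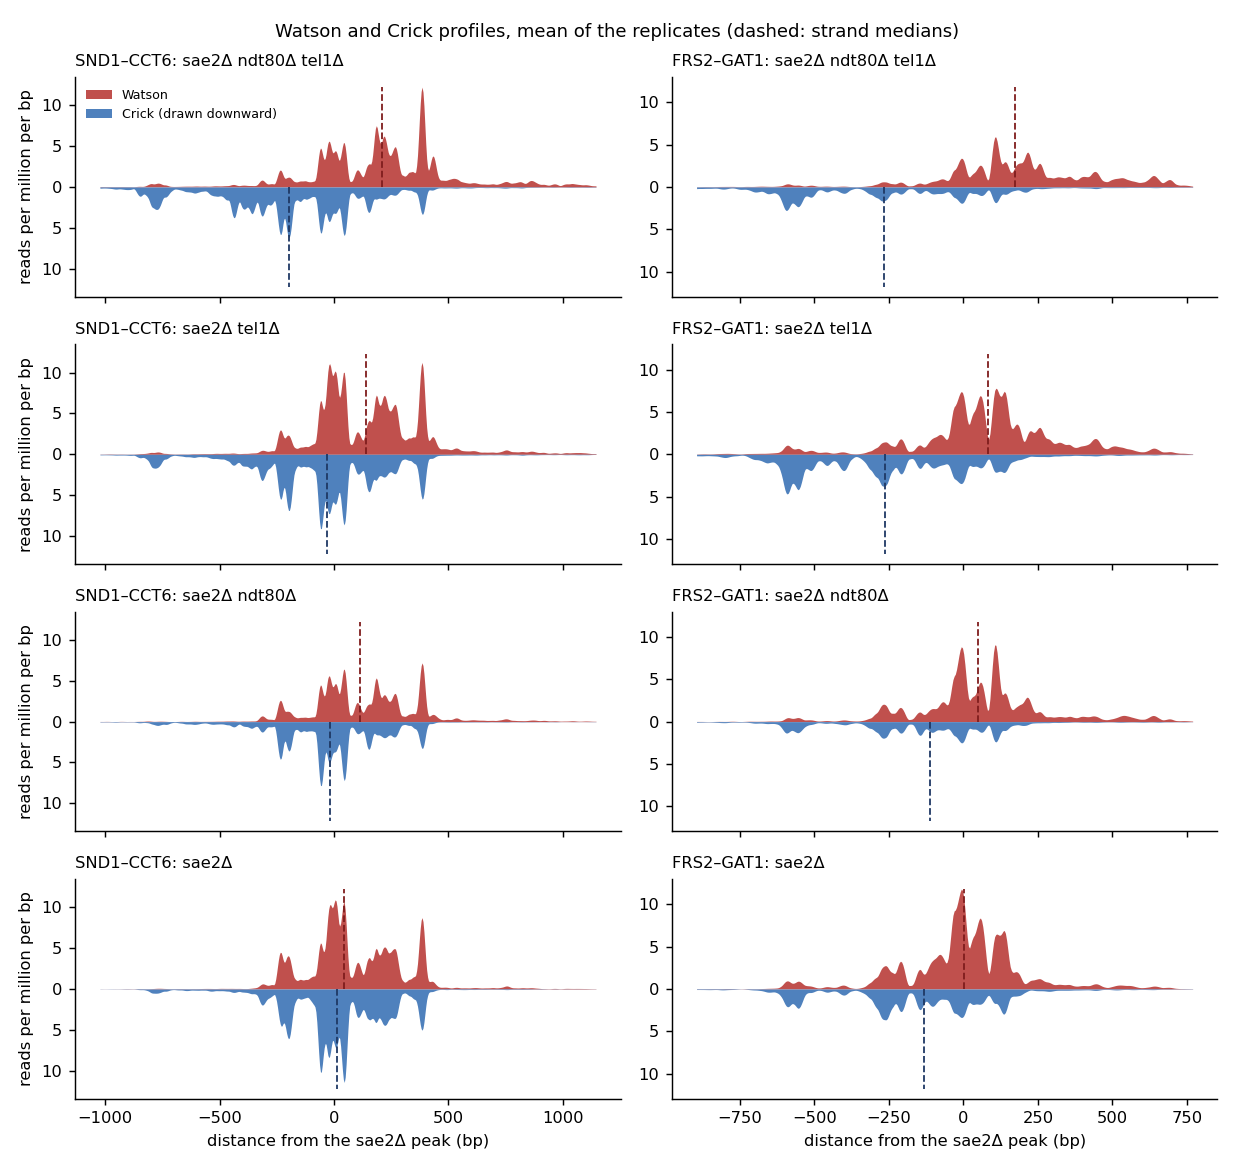
Watson reads (upward) and Crick reads (downward) in RPM per bp at SND1-CCT6 (left) and FRS2-GAT1 (right), smoothed over 51 bp and averaged over replicates, against the distance in bp from the *sae2*Δ peak. Rows are the 4 Spo11-active genotypes and dashed lines the median position of each strand in the averaged profile. In the triple mutant Watson reads gather to the right and Crick reads to the left. In *sae2*Δ the strand medians of SND1-CCT6 nearly coincide, with offsets of 18 to 42 bp by replicate.

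FRS2-GAT1, second in strength among the 9, was lower in both *ndt80*Δ genotypes than in their *NDT80* counterparts, and was called only in the comparison without *TEL1*. It had 2525, 2437, 1815, 2241 and 2893 RPM in the triple mutant, against 4742, 3893, 3675 and 3597 RPM in *sae2*Δ *tel1*Δ. It had 1517, 3243, 2202 and 3461 RPM in *sae2*Δ *ndt80*Δ, against 3650, 3902, 3541, 3526 and 4098 RPM in *sae2*Δ. Neither pair overlapped. Removal of *NDT80* without *TEL1* gave a log2 change of −0.74 (SE 0.23, adjusted p = 0.029, edgeR), and with *TEL1* −0.52 (adjusted p = 0.41, edgeR). The first call was lost without triple mutant replicate 3 (−0.66) and without any 1 of the *sae2*Δ *tel1*Δ replicates (−0.64 to −0.78), with adjusted p up to 0.11. Relative to the total in hotspots it was −0.90 (adjusted p = 0.00011, edgeR).

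Removal of *TEL1* alone gave FRS2-GAT1 a log2 change of 0.09 (95% interval −0.36 to 0.54), and −0.13 without *NDT80*. Relative to the total in hotspots the first was 0.37 (adjusted p = 0.033, edgeR), a call kept in 1 of 9 fits that left out a replicate, the one without *sae2*Δ replicate 7 (adjusted p up to 0.11). The main peak stood at 95939 in the triple mutant, 95830 in *sae2*Δ *tel1*Δ, 95819 in *sae2*Δ *ndt80*Δ, against 95823 in *sae2*Δ, with heights of 3.97, 7.38, 6.31 and 9.99 RPM per bp. Replicate peaks spanned 79, 111 and 109 bp in the mutants and 9 bp in *sae2*Δ. In the triple mutant they reached 96007, inside the *GAT1* coding region, which starts at 95966. The sub-peaks behind these positions were one at 95817 and one near 95930. The first was 5.34 high in the triple mutant, 10.9 in *sae2*Δ *tel1*Δ, 11.4 in *sae2*Δ *ndt80*Δ, against 15.2 in *sae2*Δ, while the second was 7.81, 9.93, 11.5 and 9.89. The left one was thus the higher in *sae2*Δ and the right one in the triple mutant.

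Reads at FRS2-GAT1 also reached further into *GAT1* in the mutants. The *GAT1* coding region held 37.6 ± 6.19% of the hotspot's reads in the triple mutant (range 27.3 to 42.7), 22.9 ± 2.67% in *sae2*Δ *tel1*Δ (20.4 to 26.2), 21.4 ± 7.08% in *sae2*Δ *ndt80*Δ (12.7 to 30.0) and 13.2 ± 1.55% in *sae2*Δ (11.9 to 14.9). The width holding 80% of reads was 1118, 1062, 1078, 909 and 925 bp in the triple mutant, against 891, 639, 694 and 486 bp in *sae2*Δ *ndt80*Δ. It was 913, 828, 826 and 870 bp in *sae2*Δ *tel1*Δ, against 588, 565, 493, 498 and 465 bp in *sae2*Δ. Both *tel1*Δ genotypes were wider than their *TEL1* counterparts in every replicate, by 341 bp without *NDT80* (SE 62.8, adjusted p = 0.0043, limma) and by 337 bp with it (SE 62.8, adjusted p = 0.0064, limma). Of the 2080 hotspots, 3.32% were called in the comparison with *NDT80*. *NDT80* removal with *TEL1* gave 156 bp (adjusted p = 0.18), and 220 bp without *sae2*Δ *ndt80*Δ replicate 4 (adjusted p = 0.048, limma).

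The strand offset at FRS2-GAT1 was 540, 424, 635, 345 and 231 bp in the triple mutant, against 224, 137, 140 and 129 bp in *sae2*Δ *ndt80*Δ. It was 375, 325, 331 and 330 bp in *sae2*Δ *tel1*Δ, against 145, 160, 136, 129 and 99 bp in *sae2*Δ, and the control lay within the range of *sae2*Δ. The *tel1*Δ genotypes lay above their *TEL1* counterparts without overlap, by 278 bp without *NDT80* (SE 57.0, adjusted p = 0.0027, limma) and 206 bp with it (adjusted p = 0.051, limma; 0.00072 without the time-course libraries, and 0.14 at 195 bp without replicate 1 of the 3 mutants). The control, with no Spo11 cutting, thus had an offset of that size across this wide hotspot, and background took at most 5.68% of its reads in the Spo11-active libraries. The Watson share was 61.3 ± 4.10% in the triple mutant, 58.7 ± 1.83% in *sae2*Δ *tel1*Δ, 67.6 ± 6.82% in *sae2*Δ *ndt80*Δ, against 65.2 ± 1.65% in *sae2*Δ. It was not called in any comparison (adjusted p = 0.074 and 0.080 on *TEL1* removal without and with *NDT80*, edgeR). It was called without *NDT80* when *sae2*Δ *ndt80*Δ replicate 3 or triple mutant replicate 5 was left out (−0.56 and −0.50), and with *NDT80* without the time-course libraries (−0.40, adjusted p = 0.00018) or with every library as its own replicate (−0.43, adjusted p = 0.022, edgeR).

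The CYS3 window held 2 hotspots of similar strength, with *sae2*Δ peaks at 129164 and 130649. Both were lower in the triple mutant than in *sae2*Δ *tel1*Δ. SYN8-DEP1 had 475, 575, 397, 552 and 739 RPM in the triple mutant, against 980, 1034, 991 and 962 RPM in *sae2*Δ *tel1*Δ. DEP1-CYS3, in the promoter of *CYS3*, had 440, 471, 307, 644 and 722 RPM in the triple mutant, against 946, 1019, 957 and 840 RPM in *sae2*Δ *tel1*Δ. There was no overlap at either, and both had a log2 change of −0.86 (SE 0.26, adjusted p = 0.027, and SE 0.28, adjusted p = 0.035, edgeR).

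These calls were close to the threshold. That of SYN8-DEP1 was lost without triple mutant replicate 1 or 3 or any 1 of the *sae2*Δ *tel1*Δ replicates (−0.76 to −0.87, adjusted p up to 0.079), and that of DEP1-CYS3 without triple mutant replicate 1, 2 or 3 or any 1 of the *sae2*Δ *tel1*Δ replicates (−0.72 to −0.91, adjusted p up to 0.10). Relative to the total in hotspots the changes were −1.02 (adjusted p = 0.00017) and −0.99 (adjusted p = 0.0038, edgeR). With *TEL1* present, SYN8-DEP1 had 336, 766, 564 and 1139 RPM in *sae2*Δ *ndt80*Δ, against 815, 1038, 944, 891 and 990 RPM in *sae2*Δ. DEP1-CYS3 had 277, 563, 611 and 986 RPM in *sae2*Δ *ndt80*Δ, against 740, 835, 704, 666 and 622 RPM in *sae2*Δ. Both overlapped, through the time course 17 library at the top, and neither was called. Without the time-course libraries both were called lower on *NDT80* removal with *TEL1* (−0.76 and −0.77, both with adjusted p = 0.029, edgeR), where 711 of all hotspots were called.

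*TEL1* removal with *NDT80* gave SYN8-DEP1 a log2 change of 0.08 (95% interval −0.43 to 0.59) and DEP1-CYS3 one of 0.40 (−0.15 to 0.94). DEP1-CYS3 of *sae2*Δ *tel1*Δ did not overlap with that of *sae2*Δ. On the RPM scale it was called with the 2 genotypes alone (adjusted p = 0.0020, edgeR), where 2314 of all hotspots were called. Relative to the total in hotspots it was 0.68 (adjusted p = 0.025, edgeR), a call lost without *sae2*Δ replicate 7 or *sae2*Δ *tel1*Δ replicate 2 or 3 (adjusted p up to 0.058). SYN8-DEP1 was called lower on *TEL1* removal without *NDT80* on that scale (−0.45, adjusted p = 0.031, edgeR), a call lost without triple mutant replicate 1, 2 or 3 or *sae2*Δ *ndt80*Δ replicate 3 or 4. On the RPM scale it was −0.36, and −0.59 without *sae2*Δ *ndt80*Δ replicate 1 (adjusted p = 0.0499, edgeR). CYS3-SWC3, the weakest of the 9, averaged 88.3 ± 50.9 RPM in the triple mutant, 102 ± 10.9 in *sae2*Δ *tel1*Δ, 87.7 ± 65.3 in *sae2*Δ *ndt80*Δ, against 80.7 ± 8.65 in *sae2*Δ, with no call over all libraries. It was lower on *NDT80* removal without *TEL1* when the time-course libraries were left out (−0.81, adjusted p = 0.0068, edgeR), where 1256 of all hotspots were called. With the 2 genotypes alone it was higher on *TEL1* removal with *NDT80* (0.34, adjusted p = 0.016, edgeR), in the same fit of 2314 calls.

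The CYS3 peaks were narrow and fixed in place. SYN8-DEP1 peaked at 129170, 129162, 129172 and 129164 in the triple mutant, *sae2*Δ *tel1*Δ, *sae2*Δ *ndt80*Δ and *sae2*Δ, and DEP1-CYS3 at 130644, 130645, 130649 and 130649. DEP1-CYS3 resolved into a sub-peak at 130662 and a lower one at 130562, whose height was 42.9% of the other in the triple mutant, 38.9% in *sae2*Δ *tel1*Δ, 38.0% in *sae2*Δ *ndt80*Δ, against 29.7% in *sae2*Δ. Its strands were unequal. The Watson share was 59.1, 55.8, 65.5, 57.5 and 69.4% in the triple mutant, against 70.8, 65.4, 62.8 and 82.1% in *sae2*Δ *ndt80*Δ. It was 61.8, 62.1, 63.5 and 58.0% in *sae2*Δ *tel1*Δ, against 70.2, 72.4, 72.0, 70.0 and 73.1% in *sae2*Δ. The second pair did not overlap.

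The Watson-over-Crick ratio of DEP1-CYS3 fell by 0.67 on the log2 scale on *TEL1* removal with *NDT80* (SE 0.21, adjusted p = 0.026, edgeR) and by 0.60 without it (SE 0.21, adjusted p = 0.048, edgeR). These were the 1 call of 9 with *NDT80*, where 21.5% of 3290 hotspots were called, and 1 of the 3 calls without it, where 20.7% were called. The first was lost without *sae2*Δ replicate 2, 3 or 7 or *sae2*Δ *tel1*Δ replicate 1 or 4 (−0.60 to −0.67). The second was lost without triple mutant replicate 1, 2 or 4 or *sae2*Δ *ndt80*Δ replicate 1 (−0.52 to −0.61), and was −0.30 without *sae2*Δ *ndt80*Δ replicate 4 (adjusted p = 0.19, edgeR). *NDT80* removal called 1 of 9 without *TEL1* (ATG23-IMD3, where 5.68% were called) and 0 of 9 with it, where 0.122% were called.

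The third call of strand balance without *NDT80* was CCT6-SLY1. Its Watson share was 77.3, 75.0, 56.2, 57.9 and 57.6% in the triple mutant, against 80.8, 87.7, 72.8 and 77.6% in *sae2*Δ *ndt80*Δ. It was 53.8, 56.0, 57.2 and 70.7% in *sae2*Δ *tel1*Δ, against 69.1, 68.7, 69.7, 76.0 and 80.8% in *sae2*Δ. Both pairs overlapped, and in the triple mutant the high values were those of the 2 libraries outside the time courses. The Watson-over-Crick ratio fell by 1.105 on the log2 scale without *NDT80* (SE 0.32, adjusted p = 0.017, edgeR), a call lost without the time-course libraries (−0.81, adjusted p = 0.0996) and without *sae2*Δ *ndt80*Δ replicate 2 (−0.84, adjusted p = 0.084). With *NDT80* it was −0.87 (adjusted p = 0.052, edgeR), and called without the time-course libraries (adjusted p = 0.0023) and without *sae2*Δ *tel1*Δ replicate 4. A single base carried much of the Crick signal: position 838234 held 26.9% of the Crick reads in the triple mutant, 27.0% in *sae2*Δ *tel1*Δ, 25.6% in *sae2*Δ *ndt80*Δ, against 27.0% in *sae2*Δ.

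**Figure D5:**
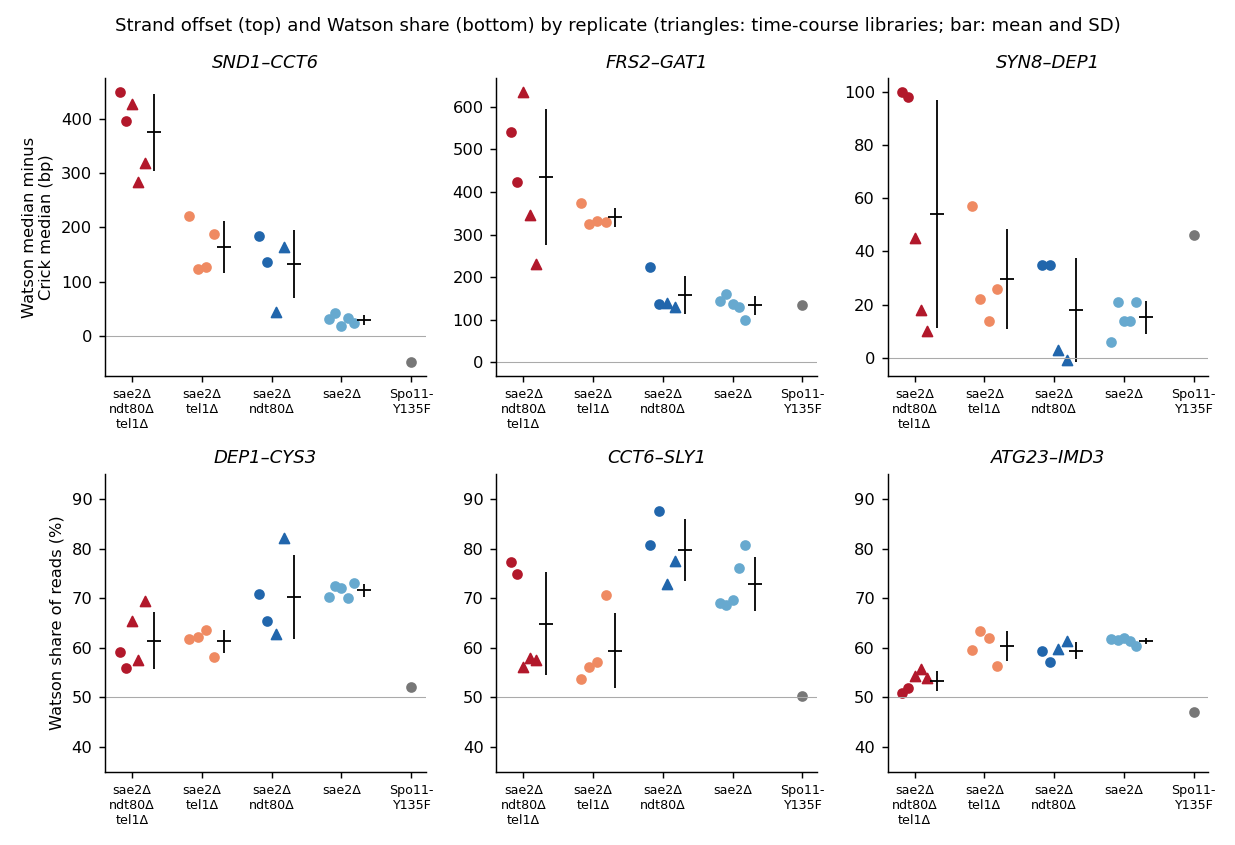
Strand offset in bp (Watson median minus Crick median, top row, SND1-CCT6, FRS2-GAT1 and SYN8-DEP1) and Watson share of reads in percent (bottom row, DEP1-CYS3, CCT6-SLY1 and ATG23-IMD3) by replicate. Triangles are time-course libraries and the bar is the mean with its SD. At SND1-CCT6 the offsets of the triple mutant are 284 to 450 bp, against 18 to 42 bp in *sae2*Δ, and at ATG23-IMD3 the Watson shares of the triple mutant are 50.8 to 55.7%, the lowest of the Spo11-active genotypes.

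ARG4-DED81, in the promoter of *ARG4*, was the most compact of the 5 main hotspots and was not called in any strength comparison over the 4 genotypes. It had 709, 725, 679, 437 and 1852 RPM in the triple mutant, 668, 832, 799 and 613 RPM in *sae2*Δ *tel1*Δ, 420, 815, 484 and 2309 RPM in *sae2*Δ *ndt80*Δ, and 721, 1084, 925, 905 and 871 RPM in *sae2*Δ. The 2 libraries of time course 17, at 1852 and 2309, stood far above all others, and the 4 genotypes overlapped. The log2 changes on *TEL1* removal were −0.31 with *NDT80* (95% interval −1.09 to 0.47) and −0.19 without it (−0.97 to 0.58), and on *NDT80* removal 0.16 with *TEL1* (−0.61 to 0.93) and 0.27 without it (−0.50 to 1.05). These intervals reach about a 2-fold change only downward on *TEL1* removal and only upward on *NDT80* removal. With the 2 genotypes alone, *TEL1* removal with *NDT80* was called at the same size (adjusted p = 0.024, edgeR), where 2314 of all hotspots were called. All strains carry arg4-nsp close by, whose effect on the mapping was not tested.

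The ARG4-DED81 peak lay at 141596, 141600, 141597 and 141601 in the triple mutant, *sae2*Δ *tel1*Δ, *sae2*Δ *ndt80*Δ and *sae2*Δ, with replicates within 1 to 5 bp, and it had 1 sub-peak in each. In *sae2*Δ it was 199 bp from *ARG4* and 293 bp from *DED81*. Cutting concentrated on few bases. Position 141596 held 17.3% of the Watson reads in the triple mutant, 16.5% in *sae2*Δ *tel1*Δ, 19.4% in *sae2*Δ *ndt80*Δ, against 18.2% in *sae2*Δ, and position 141597 held 18.5, 17.6, 19.0 and 17.7% of the Crick reads. Both were the strongest bases of their strand in every replicate of the 4 genotypes. The fewest bases that held 50% of a strand's reads numbered 5 to 10 here, against 27 to 52 at SND1-CCT6 and 33 to 54 at FRS2-GAT1. They were also few at CCT6-SLY1 (3 to 8), CYS3-SWC3 (8 to 13) and ATG23-IMD3 (9 to 13). These counts were not scaled for length or depth. SND1-CCT6 (2172 bp) and FRS2-GAT1 (1669 bp) are longer than ARG4-DED81 (448 bp). CCT6-SLY1 (254 bp), CYS3-SWC3 (203 bp) and ATG23-IMD3 (457 bp) are short and the weakest of the 9.

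The strongest Watson and Crick bases were 1 bp apart in all 4 genotypes at ARG4-DED81 and ATG23-IMD3, but at each of the remaining hotspots they lay further apart in at least 1 genotype. The whole base profiles matched more closely. Sliding one strand over the other, the best match per genotype placed Crick 1 bp to the right of Watson at each hotspot, with a correlation across bases of 0.481 to 0.975, except CCT6-SLY1 in the triple mutant and *sae2*Δ *ndt80*Δ, where it was −6 bp. In the control the best correlations were 0.045 to 0.226, at shifts of −7 to 6 bp. Neighbouring bases are not independent, so these are descriptions. At ATG23-IMD3 the strongest Watson base was 1002160, with 11.8% of the Watson reads in the triple mutant and 15.8% in *sae2*Δ *tel1*Δ, against 12.6% in *sae2*Δ *ndt80*Δ, with 17.4% in *sae2*Δ.

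The other hotspot of the ARG4 window, DED81-YHR020W, had 949, 1049, 714, 513 and 963 RPM in the triple mutant and 781, 827, 706 and 671 RPM in *sae2*Δ *tel1*Δ, with 412, 852, 450 and 745 RPM in *sae2*Δ *ndt80*Δ and 704, 980, 821, 1005 and 895 RPM in *sae2*Δ. It was called for strength only with TMM and DESeq2, as given above. Its left side, towards *DED81*, held 37.8, 36.5, 32.3 and 45.5% of reads in *sae2*Δ *ndt80*Δ, against 30.7, 28.3, 25.8, 25.2 and 27.8% in *sae2*Δ, without overlap. The ratio rose by 0.69 on the log2 scale (SE 0.16, adjusted p = 0.048, edgeR), 1 call of 9 where 0.912% of 3290 hotspots were called. It was lost in 7 of the 9 fits that left out 1 replicate (any of *sae2*Δ, and *sae2*Δ *ndt80*Δ replicate 1 or 4, 0.54 to 0.74). No hotspot of the 9 was called for this split on *NDT80* removal without *TEL1*, where 6.99% were. Without the time-course libraries that comparison called DEP1-CYS3 (−1.02), CCT6-SLY1 (−0.68), ARG4-DED81 (0.50) and ATG23-IMD3 (0.60), with adjusted p of 0.025 to 0.038 (edgeR). With *TEL1* it then called DEP1-CYS3 (−1.63), ARG4-DED81 (0.62) and ATG23-IMD3 (0.58) beside DED81-YHR020W, and *TEL1* removal with *NDT80* called ARG4-DED81 (0.39) and DED81-YHR020W (0.41) beside ATG23-IMD3. Over all hotspots these comparisons then had 435, 234 and 506 calls, in the order given. DESeq2 called SYN8-DEP1 on *NDT80* removal without *TEL1* (−0.33, adjusted p = 0.042).

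Across the 9 hotspots, larger strand offsets were also called at 2 narrower ones. On *TEL1* removal without *NDT80*, 4 of 9 were called, all larger, where 28.2% of the 2080 were called, 27.9% as larger, and the median over all 2080 was 16.5 bp. Beside SND1-CCT6 and FRS2-GAT1 these were DED81-YHR020W (31.3 bp, adjusted p = 0.041, limma) and DEP1-CYS3 (27.2 bp, adjusted p = 0.047, limma). *NDT80* removal without *TEL1* called 2 of 9 as larger, SND1-CCT6 and DED81-YHR020W (34.1 bp, adjusted p = 0.047, limma), where 13.6% were. *TEL1* removal with *NDT80* called 0 of 9 (3.94% of all as larger), *NDT80* removal with *TEL1* 0 of 9 (0.529% of all) and the interaction 0 of 9 (0.192% of all). The calls of DED81-YHR020W and DEP1-CYS3 were lost in most of the fits that left out 1 replicate, among them triple mutant replicate 1, without which they were 24.0, 22.5 and 26.8 bp in the order given. The others were triple mutant replicates 2 and 3 for all 3 calls and 5 for DED81-YHR020W, *sae2*Δ *ndt80*Δ replicates 3 and 4 for both calls on *TEL1* removal and 2 for DED81-YHR020W, and *sae2*Δ *tel1*Δ replicates 2 to 4 for the call on *NDT80* removal (23.1 to 34.8 bp).

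The SYN8-DEP1 offset was 100, 98, 45, 18 and 10 bp in the triple mutant, 57, 22, 14 and 26 bp in *sae2*Δ *tel1*Δ, 35, 35, 3 and −1 bp in *sae2*Δ *ndt80*Δ, and 6, 21, 14, 14 and 21 bp in *sae2*Δ. It was not called (36.2 bp on *TEL1* removal without *NDT80*), but was without the time-course libraries (adjusted p = 0.0049, limma) and, at 47.2 bp, without triple mutant replicate 5 (adjusted p = 0.044). The high values of the *ndt80*Δ genotypes were those outside the time courses. ARG4-DED81 stayed between −1 and 35 bp in all 18 replicates and ATG23-IMD3 between −3 and 38 bp. The width of ARG4-DED81 averaged 140 bp in the triple mutant, 134 bp in *sae2*Δ *tel1*Δ, 125 bp in *sae2*Δ *ndt80*Δ and 107 bp in *sae2*Δ, and that of ATG23-IMD3 296, 284, 265 and 254 bp, with no call at either. *NDT80* removal called no width change among the 9 with *TEL1*, where 2.84% of all were called. With the time-course libraries left out it called DEP1-CYS3 (112 bp, adjusted p = 0.028) and FRS2-GAT1 (243 bp, adjusted p = 0.036, limma), and without *TEL1* FRS2-GAT1 (231 bp), DED81-YHR020W (222 bp) and CYS3-SWC3 (23.8 bp, adjusted p of 0.033 to 0.048, limma) beside SND1-CCT6. Over all hotspots tested, 145 and 193 widths were then called with and without *TEL1*. In the libraries outside the time courses *NDT80* removal without *TEL1* also called the offsets of SYN8-DEP1 (69.2 bp, adjusted p = 0.0017) and FRS2-GAT1 (142 bp, adjusted p = 0.012, limma). There 486 offsets were called over all hotspots tested.

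Replicate 1 of each mutant genotype stood apart in shape. It was the widest replicate at 9 of 9 hotspots in the triple mutant, 8 of 9 in *sae2*Δ *tel1*Δ and 9 of 9 in *sae2*Δ *ndt80*Δ, against 2 of 9 in *sae2*Δ. The same held across the 2080 hotspots, where its median width was 162 bp in the triple mutant (140.5 to 147 bp in the others), 153 bp in *sae2*Δ *tel1*Δ (137 to 145) and 162 bp in *sae2*Δ *ndt80*Δ (129 to 138). Its background was 10.5 RPM per kb in the triple mutant, 21.6 in *sae2*Δ *tel1*Δ and, for *sae2*Δ *ndt80*Δ, 51.6, the lowest of its genotype in the second and the highest in the third. Without these 3 libraries the width difference on *TEL1* removal at FRS2-GAT1 was 387 bp without *NDT80* (adjusted p = 0.00021) and 320 bp with it (adjusted p = 0.0016, limma). That at SND1-CCT6 was 221 bp on *TEL1* removal without *NDT80* (adjusted p = 4.6e-05) and 194 bp on *NDT80* removal without *TEL1* (adjusted p = 0.00041, limma). The narrower DED81-YHR020W and SYN8-DEP1 then also had called width differences on *TEL1* removal without *NDT80* (147 and 118 bp, adjusted p = 0.00019 and 0.021, limma), where 328 of the 2080 were called. The SND1-CCT6 offsets were then 242 and 211 bp (adjusted p = 0.0012 and 0.0075, limma), and those on *TEL1* removal with *NDT80* were not called, as given above.

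The hotspots whose log2 strength followed each main hotspot most closely over the 18 replicates were sought among the 1416 hotspots with a mean of at least 100 RPM outside the 5 windows. ATG23-IMD3 was most like RIF2-FMP27 on the same chromosome, 41478 bp away (r = 0.980), and STH1-KGD1 (0.979). SND1-CCT6 was most like SRB2-NCP1 (0.979) and HST2-CIP1 (0.950), and ARG4-DED81 most like IKI3-SWC7 (0.965) and NMD2-YHR078W (0.952). SYN8-DEP1 was most like ATS1-FUN30 (0.949) and FUN19-POP5 (0.947), both on chromosome I and 14355 and 46543 bp away. FRS2-GAT1 was most like RSM7-YJR115W (0.962) and TKL1-OPY2 (0.945). All points share the libraries and their depth and background, and these values are a description with no test. Relative to the total in hotspots, the same 2 hotspots came first for SND1-CCT6, SYN8-DEP1 and ARG4-DED81, while those of FRS2-GAT1 (CLN3-CYC3, 0.940) and ATG23-IMD3 (RPS17B-ADA2, 0.973) changed.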

How the data were processed

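CC-seq libraries of 5 genotypes at 6 h were analysed. The deposited files hold read counts per base and strand: the authors mapped paired reads with Bowtie2 and TermMapper to an R64 reference carrying the HIS4::LEU2 and leu2::hisG loci, and counted the Read 1 5′ ends. The mapping-quality filter and the handling of duplicates are not given in the sources used here. The counts are whole numbers with no scaling.

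Libraries sharing a number but different letters (*sae2*Δ 7B and 7C, *sae2*Δ *tel1*Δ 1A and 1B) were summed, giving 18 replicates plus the control. After the study's template rule, hotspots were called on the mean profiles of *sae2*Δ *ndt80*Δ and of the triple mutant, and the 2 sets were joined (201 bp Hann smoothing, cut-off 0.193 hits per bp per 1000000 reads, merged when under 200 bp apart, at least 25 bp and 25 reads), giving 3291. Library size was the nuclear total outside the ribosomal DNA (chromosome XII, 451640-467844). Background came from 47 genes of over 5.5 kb, at least 20 kb from chromosome ends. The counting error of a hotspot falls with its depth, and the count model of edgeR holds it beside the spread between replicates.

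Strength, strand balance and left-right split about the hotspot midpoint were tested with edgeR 4.0.16 (glmQLFit, glmQLFTest after filterByExpr, 18 replicates, 4 genotypes in one fit). Strand balance and the split used 2 columns per replicate with the replicate as a block. DESeq2 1.42.0 was an alternative. Strand offset and width (10th to 90th percentile of reads) were tested with limma 3.58.1 on hotspots with a mean of at least 100 reads on the rarer strand. These 2 tests, and the alternatives without the 3 replicates of highest background, without replicate 1 of the mutants and with 2 choices changed together, were chosen after seeing the data. The Benjamini-Hochberg adjustment ran over all hotspots tested, with a threshold of 0.05. Python 3.11.15 and R 4.3.3 were used, and the test scripts were tested on simulated data.

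The windows, comparisons and lists were chosen with earlier results of these data known. The strongest hotspot in each window was the main one, every other hotspot with its midpoint in a window was named too, and the 2 most alike hotspots outside the windows were named by Pearson r. Gene positions were read from RefSeq's table for the same build. No genome sequence was used.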

Additional observations from a re-analysis of the deposited data

Results flagged for a closer look

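In groups of 4 or 5 replicates, the highest or lowest replicate was compared with the rest of its genotype by its gap over the range. Of 180 such groups, 19 had a replicate standing apart, and chance alone gives about 1 in 20. No cause was tested.

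Strength singled out time course 17. ARG4-DED81 stood apart in replicate 5 of the triple mutant with 1852 RPM (437 to 725 in the other replicates), which was 2135 NormHpM (background-subtracted reads per 1000000 in all hotspots, 936 to 1063 in the others), and in replicate 4 of *sae2*Δ *ndt80*Δ with 2728 NormHpM (1083 to 1234). Both are libraries of time course 17, as is the triple mutant replicate with 441 RPM at CCT6-SLY1 (163 to 238). In *sae2*Δ *tel1*Δ, DED81-YHR020W reached 1368 NormHpM in replicate 2 (1221 to 1239).

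Replicate 1 of the mutants was singled out in shape. Its width at SND1-CCT6 was 1084 bp in the triple mutant (793 to 871 in the others) and 759 bp in *sae2*Δ *ndt80*Δ (606 to 625). Its strand offset at FRS2-GAT1 was 375 bp in *sae2*Δ *tel1*Δ (325 to 331) and 224 bp in *sae2*Δ *ndt80*Δ (129 to 140). Its offset was 38 bp at ATG23-IMD3 in the triple mutant (0 to 11), 19 bp at DED81-YHR020W in *sae2*Δ *tel1*Δ (−5 to −2), −15 bp at CCT6-SLY1 in *sae2*Δ *ndt80*Δ (6 in all others) and 5 bp at CCT6-SLY1 in *sae2*Δ *tel1*Δ (6 in all others).

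The remaining ones were small in size or at weak hotspots. The offset of CYS3-SWC3 was −73 bp in *sae2*Δ *ndt80*Δ replicate 4 (−1 to 0) and −19 bp in *sae2*Δ replicate 1 (−6 to −1). That of ATG23-IMD3 was −1 bp in *sae2*Δ *tel1*Δ replicate 3 (16 to 18). At ARG4-DED81 in *sae2*Δ, the offset was 14 bp in replicate 7 (−1 in the others), the width 119 bp in replicate 2 (at most 106) and the Watson share 42.7% in replicate 5 (at least 46.1).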

How the results depend on the processing

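Counts of called hotspots over the genome are given for *NDT80* removal with and without *TEL1*, *TEL1* removal with and without *NDT80*, and the interaction, against 0, 532, 1070, 762 and 5 for strength. Scaled to the total in hotspots they were 1, 1008, 1438, 1413 and 88. With TMM the last 4 were 1220, 1660, 1620 and 213, and with DESeq2 the 5 were 117, 1320, 1722, 1717 and 381. The replicate numbers did not pair the samples throughout. By deviation from the genotype mean over all hotspots, a replicate was closest to its own number in 0 of 3 cases on *NDT80* removal with *TEL1*. It was so in 3 of 4 without *TEL1*, and in 2 of 3 on *TEL1* removal with *NDT80*. Without *NDT80* it was 2 of 4, with correlations from −0.25 to 0.77. Those 2 were replicates 1 and 2 (0.67 and 0.77). Numbers 3 and 4 stand for different time courses in these 2 genotypes. Triple mutant replicate 4 was closest to *sae2*Δ *ndt80*Δ replicate 3, and both are of time course 10. The main fits left the replicates unpaired. The replicate block went by number, not by time course, and a fit paired by time course was not tested. A replicate block gave 263 for *NDT80* removal without *TEL1* and 1 for the interaction, and with the total in hotspots 953, 1437 (*TEL1* removal without *NDT80*) and 2 (interaction). FRS2-GAT1 lost its call under the replicate block (−0.78, adjusted p = 0.06, edgeR). The 2 genotypes alone gave 3, 2314 and 156 (*NDT80* removal with *TEL1*, *TEL1* removal with and without *NDT80*), and ATG23-IMD3 and CCT6-SLY1 lost their calls on *TEL1* removal without *NDT80* (adjusted p = 0.063 and 0.086, edgeR). The series as a block gave 4 and 184 (*NDT80* removal with *TEL1*, interaction). Without the time-course libraries the 5 counts were 711, 1256, 1885, 1275 and 899, and with the total in hotspots as well 464, 1987, 2262, 1912 and 1247. In that last fit 2 values of *NDT80* removal without *TEL1* changed sign: ARG4-DED81 to −0.33 (adjusted p = 0.028, against 0.27) and ATG23-IMD3 to −0.52 (adjusted p = 0.0033, against 0.40). Every library as its own replicate gave 878 (*NDT80* removal without *TEL1*) and 176 (interaction), and omission of the 3 replicates of highest background gave 2, 1273 and 161 (*NDT80* removal with and without *TEL1*, interaction). The cause of these differences was not tested.

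Strand balance, 4 calls on *NDT80* removal with *TEL1* and 708 on *TEL1* removal with *NDT80*, gave 24 with DESeq2 and 7 with every library for the first, and 1096 without the time courses for the second. The left-right split had 30, 230, 127 and 116 calls in the 4 comparisons. It gave 120, 205 and 237 with DESeq2 (all but the second), 234, 435 and 506 without the time courses (the first 3), and 123 and 259 with every library (the first and the third). Strand offset had 11, 284, 89, 586 and 4 calls. Without the time courses all but the fourth moved, to 5, 486, 198 and 55, and without replicate 1 of the mutants the third and the fifth moved to 42 and 10. Width had 59, 96, 69, 134 and 0 calls. Without the time courses the first 4 were 145, 193, 114 and 13, and FRS2-GAT1 and SND1-CCT6 lost their calls without *NDT80* (325 and 280 bp, adjusted p = 0.056 and 0.074, limma). Without replicate 1 of the mutants they were 26, 223, 328 and 11 for all but the third. Leaving out 1 replicate gave 0 to 119, 218 to 882, 799 to 983, 574 to 1161 and 1 to 844 calls for strength, 1 to 40, 98 to 238, 519 to 610 and 574 to 678 for strand balance, 2 to 81, 83 to 299, 31 to 81 and 42 to 254 for the split, 0 to 13, 125 to 475, 54 to 97, 390 to 712 and 2 to 34 for offset, and 25 to 100, 42 to 126, 33 to 62, 41 to 388 and 0 to 4 for width. The strength calls of ATG23-IMD3 and CCT6-SLY1 kept their side of the threshold in each of those fits. Peak positions moved by more than the replicate range in 21 of 40 settings of smoothing, and sub-peak counts in 25 of 60 settings of smoothing or prominence.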
